A study of Rattus norvegicus with 12 samples.

Results

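The proteasome subunits are the 32 genes of the choroid plexus transcriptome whose symbol is PSMA, PSMB, PSMC, PSMD or PSME followed by a number, out of 32883 genes listed for each library. An Ensembl identifier was taken as a member only where the gene lists supplied with the study pair it with such a symbol. This gave 13 subunits of the 20S core (6 PSMA and 7 PSMB), 6 of the ATPase ring (PSMC), 10 other regulatory subunits (PSMD) and 3 activators (PSME). Those lists were held here only in part: 29 members came from a list of expressed genes, of which the held part ends at a light-phase mean of 50.6 TPM (transcript abundance per length, scaled to a fixed total in each library), and 3 (PSMC6, PSMD14 and PSME4) came only from the list of genes that the study called on these samples. A cut on the light-phase level more readily admits genes that are higher in that phase. PSMD3 and PSMD4, paired only through the expressed list, had dark-phase means of 49.6 and 50.2 TPM, below that cut. PSMD12, paired through both lists, had a dark-phase mean of 50.5 TPM, also below the cut. No identifier was paired with the immunoproteasome subunits PSMB8, PSMB9 and PSMB10, with PSMA3 or with PSMD11, and these were not analysed here.

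Choroid plexus of the lateral ventricles and the fourth ventricle, taken as whole tissue, was collected from 12 male Sprague-Dawley rats aged 9 weeks, with 1 library per rat. In the light phase, 6 rats were sampled at zeitgeber time (ZT) 8, that is 8 h after lights on. The dark phase group, 6 other rats, was sampled at ZT20, 8 h after lights off, in darkness but for a red lamp used now and then. All 12 were kept on an equal light-dark cycle with free access to food and water and were anesthetized with ketamine and xylazine, and each phase was sampled at a single time point.

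The proteasome degrades proteins tagged with ubiquitin. Its barrel-shaped 20S core is built from outer rings of alpha subunits, which gate the entrance, and inner rings of beta subunits, of which PSMB5, PSMB6 and PSMB7 carry the chymotrypsin-like, caspase-like and trypsin-like proteolytic sites. The regulatory particle caps the core to form the 26S proteasome: its base holds the ATPase ring, which unfolds the substrate and threads it into the core, and its lid removes the ubiquitin chain. The PSME proteins are alternative caps that need no ubiquitin tag. Choroid plexus epithelium secretes cerebrospinal fluid and makes large amounts of secreted protein, of which transthyretin is the best known.

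Promoter sequences of 4 core subunits are shown because their transcripts differed in how far they moved between the phases, as described further on, and because their promoters hold different short motifs. They are RefSeq sequences of the build GRCr8, each covering the 120 bases before the annotated start of the gene, written 5′ to 3′ on the strand of the gene. Capitals mark CCAAT boxes (CCAAT, bound by NF-Y) in PSMA5 and PSMB3, and matches to the antioxidant response element (TGACNNNGC, bound by NFE2L1 and NFE2L2) in PSMB6 and PSMB5. PSMA5 lies at chr2:198584385-198584504 on the plus strand, PSMB3 at chr10:83193667-83193786 on the plus strand, PSMB6 at chr10:55737768-55737887 on the plus strand and PSMB5 at chr15:32047380-32047499 on the minus strand.
PSMA5: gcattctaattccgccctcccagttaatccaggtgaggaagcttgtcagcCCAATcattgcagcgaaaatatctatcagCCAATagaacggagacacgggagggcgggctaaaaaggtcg
PSMB3: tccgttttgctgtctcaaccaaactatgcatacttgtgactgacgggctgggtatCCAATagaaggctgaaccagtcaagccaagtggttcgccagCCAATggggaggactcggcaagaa
PSMB6: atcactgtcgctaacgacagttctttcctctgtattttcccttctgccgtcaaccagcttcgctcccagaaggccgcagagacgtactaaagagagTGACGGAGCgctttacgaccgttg
PSMB5: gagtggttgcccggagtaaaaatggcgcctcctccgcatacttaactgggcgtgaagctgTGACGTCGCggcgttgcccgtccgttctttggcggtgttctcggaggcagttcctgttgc

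Of the 32 members, RefSeq held a promoter of 300 bases (250 before and 50 after the start) for 28, and PSMA7, PSMD6, PSMD12 and PSMD14 were not matched. Both strands were searched for each motif. A CCAAT box was found in 13 of the 28 promoters (46.4%), against 37.5% of all 33469 promoters in the RefSeq set. It was present in 8 of the 12 matched core promoters and in 5 of the 16 others. The antioxidant response element was found in 6 (21.4%, against 12.1% of all promoters): PSMB2, PSMB5, PSMB6, PSMD1, PSMD3 and PSME4. In PSMB2 the element and a CCAAT box share 1 base, at -68 from the start. An E-box (CACGTG, bound by CLOCK and BMAL1) was found in PSMA4, PSMB3 and PSMC1 (10.7%, against 6.42%), and a D-box (TTATGTAA or TTACGTAA) in 0 of the 28, against 1.01% of all promoters. These matches are letters in a window and no evidence of binding.

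A single library stood apart in the members themselves: light-phase replicate 6 held the highest value of 27 of the 32 on the scaled values used for the tests and of 19 in TPM as deposited. Depth relative to the mean library, estimated from the step that 1 read makes in the FPKM of weak genes, ranged from 0.897 to 1.34 in the light phase and from 0.908 to 1.10 in the dark phase. All 10 epithelial markers were paired and present, led by TTR, which took 253710 to 304180 TPM at ZT8 and 286840 to 309720 TPM at ZT20. Of these markers, 2 were higher in the light phase (AQP1 and SLC4A5) and 5 in the dark phase (KL, CLIC6, PRLR, TRPV4 and OTX2). Of the fibroblast, endothelial, macrophage, erythrocyte, and neural and glial markers, 7 had an identifier and 0 passed the test by limma (2 had an unadjusted p below 0.05). The erythrocyte marker HBB ranged widely, from 1406 to 5535 TPM at ZT8 and from 839 to 2190 TPM at ZT20. Most genes of these lists were unpaired, so a change in the share of other cells was not tested. In whole tissue, fewer cells of a type and less RNA per cell cannot be told apart.

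Levels are given in TPM as the authors deposited them, a unit already divided by transcript length, so that the genes may be set side by side. PSMB1, a beta subunit with no proteolytic site, had the highest mean of the 32 members. Its transcripts stood at 469.9, 493, 463, 486, 485 and 540.1 TPM in the 6 rats sampled at ZT8 and at 419, 429, 433, 435, 450.1 and 429 TPM in those sampled at ZT20. The phases did not overlap, and the light-phase mean was 3.16 times the median of the 13 core subunits. The lowest member, PSME4 (PA200, a large single-chain cap), stood at 20.2 to 21.1 TPM at ZT8 and 20.4 to 24.0 TPM at ZT20.

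Within the core, the other subunits lay between PSMB5 at 225 ± 12.1 TPM and PSMA5 at 89.8 ± 4.16 TPM at ZT8 (SD, n = 6). The 6 ATPases, which occupy equal positions in 1 ring, ranged from PSMC3 at 120.1 ± 6.42 TPM to PSMC6 at 37.0 ± 2.59 TPM. Among the PSMD genes the range was 103.8 ± 4.48 TPM (PSMD2, a scaffold of the base) to 43.9 ± 2.68 TPM (PSMD14, the deubiquitinase of the lid). PSME1 and PSME2 encode the partners of the PA28 cap, and PSME1 stood at 241 ± 14.0 TPM against 56.2 ± 2.48 TPM for PSME2. Transcripts of subunits that are assembled side by side were thus present at unequal levels, and the plot of levels by subunit shows the order in both phases.

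**Figure D1:**
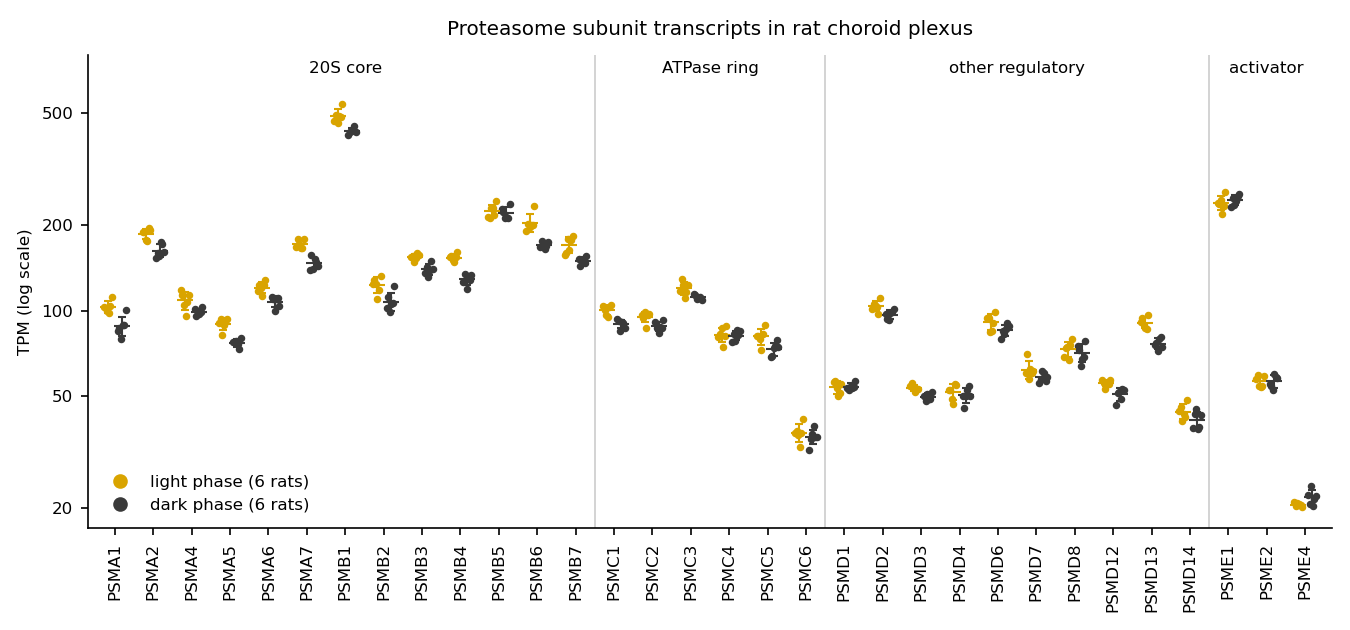
TPM on a log scale for the 32 subunits, grouped by class, with 1 point per rat and the mean ± SD of each phase (n = 6). All 13 core subunits have a lower mean in the dark phase, with no overlap of the phases for 8 of them, and PSMB1 stands above all other members.

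To determine which subunits fluctuated with the light-dark cycle, the phases were compared with limma on log2(scaled TPM + 0.5) over the 12513 genes that averaged 1 TPM or more, as dark minus light, with the false discovery rate (FDR) adjusted over all of them. All 32 members passed this filter. Of these, 19 were called at an FDR below 0.05, all 19 higher in the light phase, whereas 17.7% of all tested genes were called in either direction, 8.08% higher at ZT8 and 9.64% higher at ZT20. Among the 4524 genes averaging 20 TPM or more, where all members lie, the shares were 11.0% and 12.4%. The median log2 fold change of the members was -0.14, against -0.0057 over all tested genes, and 30 of the 32 estimates were below 0. A gap with no overlap, with all 6 light-phase libraries above all 6 dark-phase libraries in TPM, was found for 12 members, against 3.14% of all tested genes, and the opposite gap for 0 members, against 5.12%. The 3 members paired only through the study's called genes did not pass the test here, so the 19 calls all belong to the 29 others. PSMD2 and PSMD6, which the study had also called with DESeq2 on counts, did not pass either. The shares over all tested genes, unlike the 29 members, had no cut on light-phase level. The changes were small: the called members were 7.40 to 20.1% higher in the light phase, with a median of 13.2%.

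The libraries also differed between the phases in a property of the whole transcriptome. Total FPKM divided by total TPM, which is set by the mean effective transcript length of a library, was 0.953 to 0.987 at ZT8 and 0.934 to 0.960 at ZT20, or a mean length of 1013 to 1049 bases against 1041 to 1071 bases. With this ratio as a covariate, 0 of the 32 members were called, 9 had an unadjusted p below 0.05 and 25 of the 32 estimates remained below 0, while the calls over all genes fell from 2217 to 346. The ratio moved with the phase in these 12 libraries, and the part of each cannot be told apart.

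The 20S core held most of the calls. Of its 13 subunits 12 were called, 6 of 6 PSMA and 6 of 7 PSMB, with log2 fold changes between -0.28 and -0.15 and a class median of -0.21. The called core transcripts were 9.81 to 20.1% higher in the light phase. Summed over the core, the level was 2302 ± 89.0 TPM at ZT8 and 2032 ± 43.0 TPM at ZT20 (SD, n = 6), 13.3% higher in the light phase with no overlap between the libraries. Without light-phase replicate 4, 11 core subunits were called, and PSMB7 missed the threshold (limma, adjusted p = 0.0535). Under the covariate the median of the core was -0.15, and 12 of the 13 estimates were below 0.

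PSMB4, a beta subunit with no proteolytic site, had the smallest p of the core. It stood at 154, 156, 151, 149, 154 and 161 TPM at ZT8 and at 127, 135, 119, 132, 129 and 134 TPM at ZT20. Every light-phase library lay above every dark-phase library, and the log2 fold change was -0.27 ± 0.04 (SE, limma, adjusted p = 0.00065).

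Among the alpha subunits, PSMA5 stood at 90.2, 93.4, 82.2, 88.6, 91.3 and 93.3 TPM at ZT8 against 77.3, 77.2, 78.0, 76.1, 73.0 and 80.2 TPM at ZT20. The phases did not overlap (log2 fold change -0.24 ± 0.04, limma, adjusted p = 0.00163). PSMA7 changed by the same amount, from 172 ± 5.94 to 147 ± 6.97 TPM (adjusted p = 0.00188, limma). PSMA1 showed a log2 fold change of -0.24 with overlap, since dark-phase replicate 6 at 100.2 TPM reached into the light-phase range of 97.9 to 112 TPM. PSMA2 (-0.21), PSMA6 (-0.18) and PSMA4 (-0.15) were also called, with adjusted p between 0.00538 and 0.0181 (limma). Of these, PSMA4 lost its call when TPM was used without scaling (adjusted p = 0.0753). The remaining non-catalytic beta subunits PSMB1, PSMB2 and PSMB3 had log2 fold changes of -0.19, -0.21 and -0.16.

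The 3 subunits with proteolytic sites did not move alike. PSMB6, with the caspase-like site, stood at 191, 202, 197, 201, 201 and 235 TPM at ZT8 and at 168, 176, 169, 165, 169 and 175 TPM at ZT20. The phases were separate, and light-phase replicate 6 stood above the rest of its group. Its log2 fold change of -0.28 ± 0.05 (SE, limma, adjusted p = 0.00406) was the lowest of all members.

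PSMB7, with the trypsin-like site, stood at 157, 160.4, 179, 164, 177 and 184 TPM at ZT8 and at 152, 143, 151, 151, 148 and 156 TPM at ZT20. The gap between the phases was narrow and was lost on the scaled values, and the log2 fold change was -0.20 ± 0.05 (limma, adjusted p = 0.0208).

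PSMB5, with the chymotrypsin-like site, was the only core subunit that was not called. It stood at 215, 212, 231, 229.7, 218 and 244 TPM at ZT8 and at 229, 223, 212, 214, 213 and 238 TPM at ZT20. The ranges overlapped almost fully, and the log2 fold change was -0.04 with an interval of 2 SE from -0.14 to 0.07 (limma, adjusted p = 0.694).

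The differences between these subunits were tested within libraries, with an exact permutation test for each of the 3 pairs. The ratio of PSMB5 to PSMB6 was 1.10 ± 0.0523 in the light phase (1.04 to 1.17) and 1.301 ± 0.0492 in the dark phase (1.26 to 1.36, SD, n = 6), with no overlap. On the log2 scale it was 0.24 higher in the dark phase (exact permutation test, two-sided, p = 0.00216, which is the smallest value for 6 rats against 6, and adjusted p = 0.00325 over 3 pairs). PSMB5 to PSMB7 moved likewise, from 1.32 ± 0.0597 to 1.48 ± 0.0595, a log2 difference of 0.16 at the same exact p and adjusted p. For PSMB6 to PSMB7 the log2 difference was -0.08, and the ratios of the phases overlapped (exact permutation test, p = 0.104 before and after adjustment). With the length covariate, the log2 fold changes were 0.05 for PSMB5, -0.18 for PSMB6 and -0.09 for PSMB7, none of them called. The transcript of the chymotrypsin-like subunit thus differed from the other catalytic subunits in its change between the phases, and the plot of catalytic subunits shows the separation in the ratios. Of the 4 promoters printed above, PSMB5 and PSMB6 hold the antioxidant response element, at -60 to -52 and at -24 to -16 from the start. Over all matched promoters the element was found in 3 of 17 called and 3 of 11 uncalled members. The CCAAT box was found in 11 of 17 called and 2 of 11 uncalled members, and the E-box in 3 of 17 and 0 of 11. A link between any of these motifs and the transcript change was not tested.

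**Figure D2:**
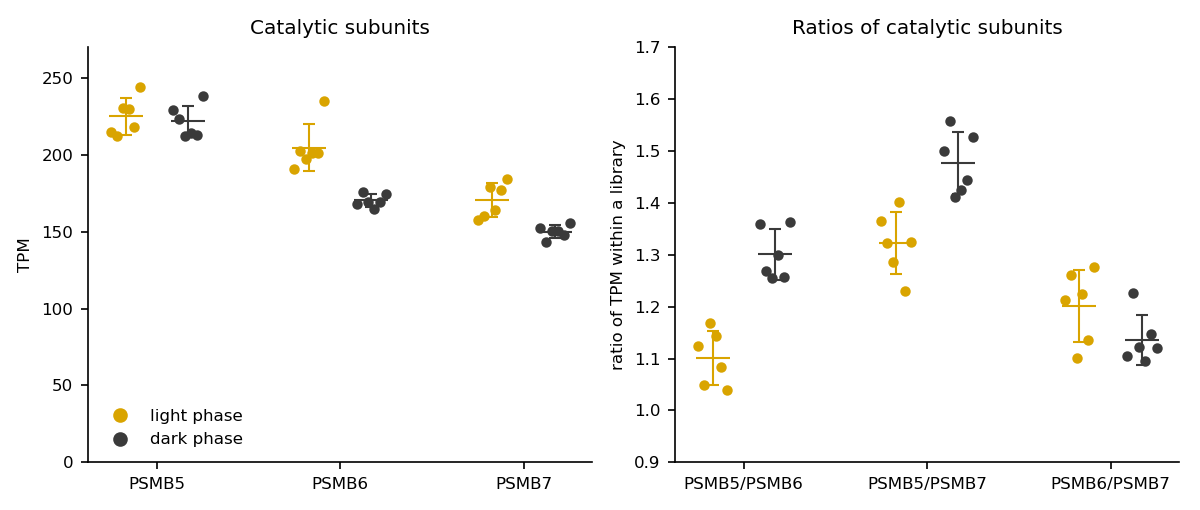
Left, TPM of the 3 catalytic core subunits with 1 point per rat and the mean ± SD of each phase (n = 6); right, the ratios between them within each library, on an axis that does not start at 0. In TPM, PSMB5 overlaps between the phases while PSMB6 and PSMB7 do not, and both ratios with PSMB5 as numerator are higher in all 6 dark-phase libraries.

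In the ATPase ring, 4 of 6 subunits were called, all higher in the light phase, with a class median of -0.12 and estimates between -0.18 and -0.02. PSMC1, an ATPase, had the smallest p, at 103.5, 100.2, 96.2, 95.0, 103 and 105 TPM at ZT8 and 93.1, 91.8, 84.7, 91.1, 90.05 and 87.1 TPM at ZT20. The phases of PSMC1 did not overlap (log2 fold change -0.18 ± 0.04, limma, adjusted p = 0.008). On the scaled values the phases of PSMC3 did not overlap either. PSMC5 (-0.16), PSMC2 (-0.12) and PSMC3 (-0.12) were called at adjusted p between 0.0218 and 0.0355 (limma), with phases that overlapped in TPM.

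PSMC4 showed the largest p of the ring. It stood at 80.3, 82.4, 86.5, 74.3, 81.2 and 87.9 TPM at ZT8 and 77.4, 82.3, 78.2, 85.2, 82.1 and 84.4 TPM at ZT20, with overlap. The log2 fold change was -0.02, with an interval of 2 SE from -0.11 to 0.07 (limma, adjusted p = 0.773). PSMC6, the ATPase with the lowest level, was not called either (-0.06, interval -0.17 to 0.05). The summed level of the ring was 516 ± 23.2 TPM at ZT8 and 479 ± 7.56 TPM at ZT20, 7.54% higher with overlap. The calls of PSMC2, PSMC3 and PSMC5 lay near the threshold: the ring held 1 call in TPM without scaling and 2 calls without light-phase replicate 5, light-phase replicate 6, dark-phase replicate 3 or dark-phase replicate 6.

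Of the 10 PSMD genes 3 were called, all higher in the light phase and all in the lid. These were 3 of 7 lid subunits, against 0 of 3 base subunits, with 1 base subunit at an unadjusted p below 0.05. Among the called genes, PSMD3 and PSMD12 reached the expressed-list cut of 50.6 TPM only in the light phase. The count therefore depends in part on how members were found, and whether lid and base differ was not tested. The class median was -0.11, and all 10 estimates were below 0. PSMD13, a scaffold of the lid, stood at 91.0, 94.1, 88.6, 86.7, 86.3 and 96.3 TPM at ZT8 and 75.3, 76.5, 71.7, 79.5, 80.7 and 74.5 TPM at ZT20. With no overlap and a log2 fold change of -0.26 ± 0.04 (limma, adjusted p = 0.00116), its estimate lay within the range of the core subunits.

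PSMD12 (-0.15) and PSMD3 (-0.12), further scaffolds of the lid, were also called without overlap of the phases (limma, adjusted p = 0.0273 and 0.0115). The gaps were very narrow. The lowest light-phase and highest dark-phase values were 52.99 and 52.84 TPM for PSMD12, and 51.57 and 51.53 TPM for PSMD3. PSMD12 lost its call without light-phase replicate 4, light-phase replicate 6, dark-phase replicate 1 or dark-phase replicate 4 (limma, adjusted p up to 0.0705). The deubiquitinase PSMD14 and its partner PSMD7 had log2 fold changes of -0.11 and -0.10 and did not pass the test (limma, adjusted p = 0.192 and 0.176). The lid subunits PSMD6 and PSMD8 stood at -0.11 and -0.06, also not called.

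In the base, PSMD2, which the study had called, had a log2 fold change of -0.12 (limma, adjusted p = 0.074). The ubiquitin receptor of the base, PSMD4, had one of -0.05. PSMD1, its other scaffold, stood at 55.7, 56.5, 53.1, 49.7, 51.0 and 54.9 TPM at ZT8 and 53.1, 52.4, 54.3, 53.1, 53.6 and 56.5 TPM at ZT20. The phases overlapped, and the interval of the log2 fold change ran from -0.07 to 0.06 (limma, adjusted p = 0.948), with a sign that flips when TPM is used without scaling. The summed level of the 10 PSMD genes was 678 ± 25.8 TPM at ZT8 and 633 ± 13.2 TPM at ZT20, with overlap.

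Of the activators, 0 of 3 were called by limma, and 0 had an unadjusted p below 0.05. The study itself had called PSME4, with DESeq2 on counts. PSME4 had the smallest p, at 21.1, 20.3, 20.8, 20.6, 20.4 and 20.2 TPM at ZT8 and 22.3, 20.7, 24.0, 20.4, 21.5 and 22.1 TPM at ZT20. The dark-phase libraries were more spread, and the log2 fold change was 0.07 with an interval of -0.02 to 0.15 (limma, adjusted p = 0.313).

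PSME2, the beta partner of PA28, had the largest p of the class, at 57.3, 59.0, 54.2, 53.7, 54.0 and 58.8 TPM at ZT8 and 54.8, 54.0, 52.2, 59.7, 58.3 and 57.9 TPM at ZT20. The phases overlapped, with a log2 fold change of -0.02 and an interval of -0.10 to 0.07 (limma, adjusted p = 0.839). PSME1, its alpha partner, stood at 241 ± 14.0 against 246 ± 9.99 TPM, with an interval of -0.07 to 0.11. The summed activators lay at 317 ± 15.6 TPM at ZT8 and 324 ± 11.3 TPM at ZT20. Whether the classes differ in their change was not tested, since the members share the same libraries and were chosen with results known. The plot of fold changes by class gives all 32 estimates.

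**Figure D3:**
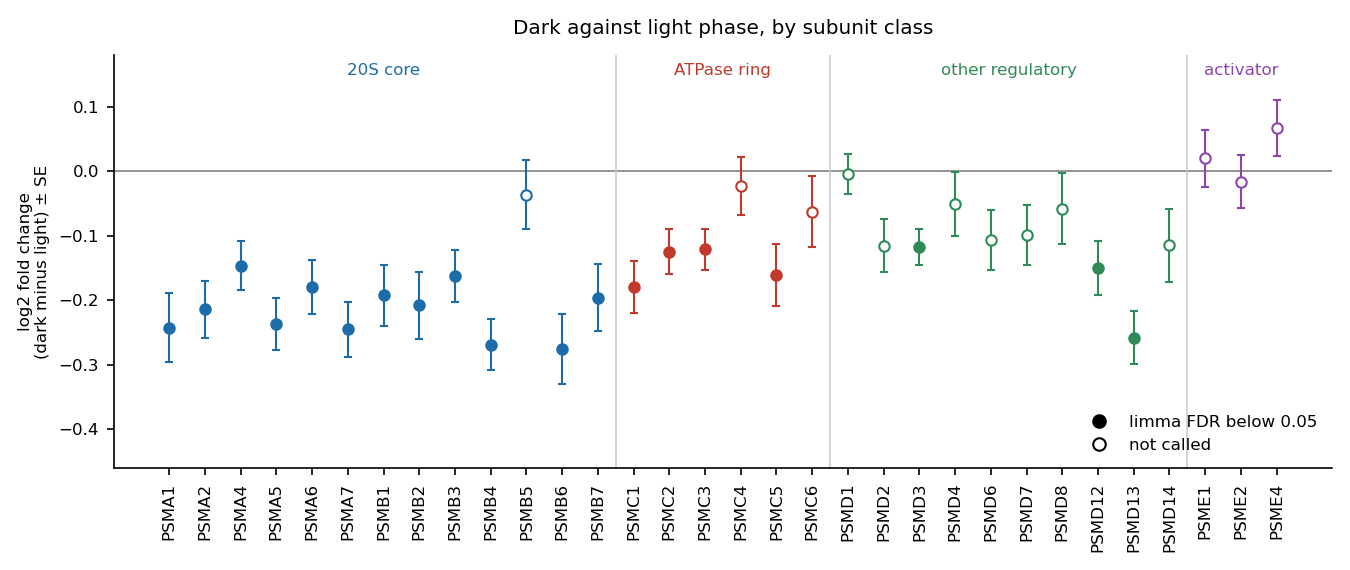
Log2 fold change (dark minus light) with its SE for the 32 subunits by class, from limma with n = 6 rats per phase; filled points have an FDR below 0.05. All core estimates but PSMB5 lie between -0.28 and -0.15, while the 3 activators lie between -0.02 and 0.07.

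The members were also followed library by library. On the scaled values, each light-phase library had 23 to 31 of the 32 members above the median of the 12 libraries, and each dark-phase library 3 to 11. Dark-phase replicates 1 and 3 held the lowest scaled value of 11 members each. Without light-phase replicate 6, which held most of the highest values, 16 members were called higher at ZT8 and 0 at ZT20: 12 in the core, 2 in the ATPase ring and 2 among the PSMD genes.

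**Figure D4:**
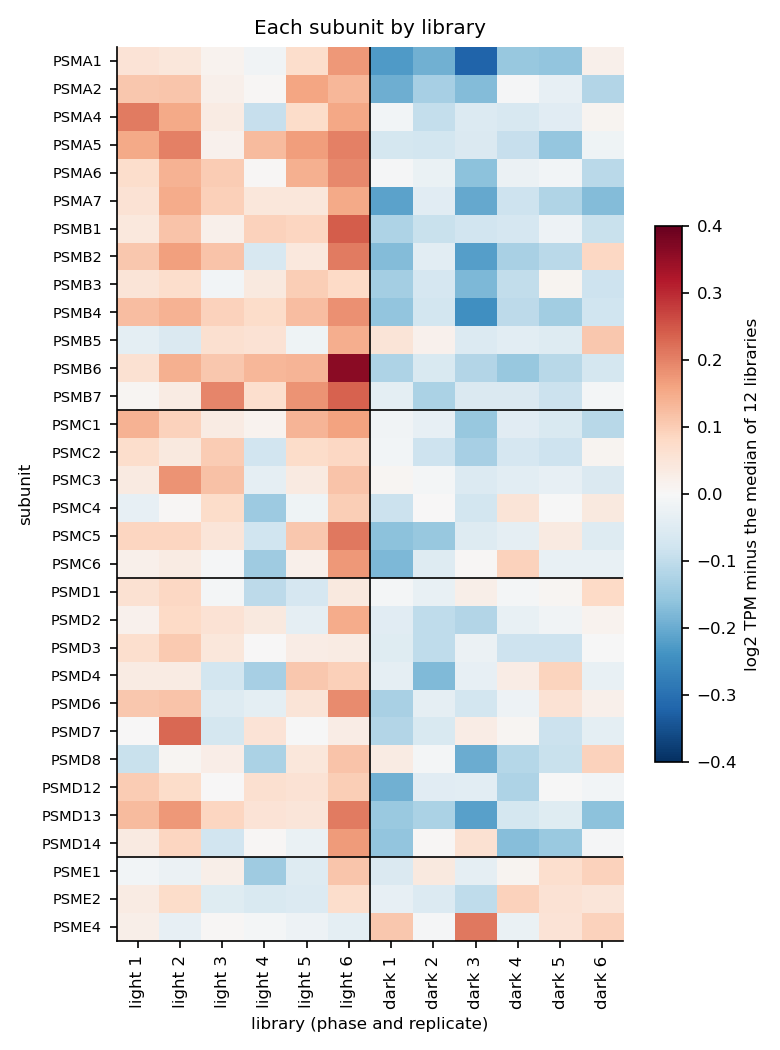
Log2 TPM of each subunit minus its median over the 12 libraries, with subunits in rows by class and libraries in columns by phase and replicate; red is above and blue below the median. The core rows are mostly red in the light phase and blue in the dark phase, light-phase replicate 6 is the reddest column, and the PSMB5 and activator rows show no such split.

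Of 15 further subunit genes on a list drawn up for comparison, 3 had an identifier. PSMA3L, a copy of an alpha subunit gene paired only through the study's called genes, was higher in the light phase (-0.16, limma, adjusted p = 0.0264), a call kept in 14 of 21 alternative fits without the length covariate and lost in TPM without scaling. SEM1, a small lid subunit, and ADRM1, a ubiquitin receptor, had log2 fold changes of -0.10 and -0.09 and were not called. POMP, the chaperone of core assembly, was the only one of 9 assembly genes with an identifier, at 264 ± 19.0 TPM at ZT8 and 263 ± 15.2 TPM at ZT20 (-0.02, limma, adjusted p = 0.841).

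NFE2L1, the transcription factor known to raise subunit genes when proteasome activity falls, was higher in the dark phase. It stood at 61.0, 71.7, 63.8, 60.9, 61.8 and 60.7 TPM at ZT8 and 74.7, 64.7, 74.9, 69.8, 69.6 and 69.4 TPM at ZT20. The phases were separate but for light-phase replicate 2, which lay above 4 of the dark-phase libraries (log2 fold change 0.14 ± 0.04, limma, adjusted p = 0.0354). SYVN1, a ubiquitin ligase of the endoplasmic reticulum, was higher in the dark phase (0.12, limma, adjusted p = 0.0407). DDI2, the protease that activates NFE2L1, was not called (0.08). Both SYVN1 and DDI2 were paired only through genes the study called on these samples, so the SYVN1 call is no independent evidence. The other 6 genes of this list, NFE2L2 and KEAP1 among them, had no identifier. The NFE2L1 and SYVN1 calls lay near the threshold and were kept in 12 and 11 of the 21 alternative fits that leave out the length covariate. A link between the NFE2L1 transcript and those of the subunits was not tested.

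Among the ubiquitin genes described here, RPS27A, which fuses ubiquitin to a ribosomal protein, was listed on 2 identifiers that may share reads, with log2 fold changes of -0.20 and -0.23, both called higher in the light phase (limma, adjusted p = 0.0416 and 0.0261). These calls were kept in 9 and 15 of the 21 alternative fits and were both lost in TPM without scaling. UBB, which encodes a chain of ubiquitins, stood at 1584 ± 48.1 TPM at ZT8 and 1681 ± 43.7 TPM at ZT20 (0.07), and the ubiquitin-activating enzyme UBA1 had a log2 fold change of 0.09. Neither was called.

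Of 21 genes for ubiquitin shuttles, the unfoldase VCP and its cofactors, 14 had an identifier. Of these, 3 were called higher in the light phase, 5 higher in the dark phase and 6 were not called. Over all tested genes, 8.08% were called higher in the light phase and 9.64% higher in the dark phase. Of the 14, 8 were paired only through genes the study called on these samples, so the counts are no independent evidence. The 6 paired through the expressed list gave 2 calls higher in the light phase and 1 higher in the dark phase. The ubiquilins, which carry tagged proteins to the proteasome, rose in the dark phase: UBQLN1 by 0.14, UBQLN2 by 0.26 and UBQLN4 by 0.20 on the log2 scale. UBQLN2 stood at 20.2 to 22.6 TPM at ZT8 and at 25.4 to 27.6 TPM at ZT20, with no overlap (limma, adjusted p = 0.001), and was the only one of the 14 called pathway genes that kept its call under the length covariate (adjusted p = 0.014).

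The other shuttle RAD23B was higher in the light phase (-0.12, limma, adjusted p = 0.0414). UFD1, a substrate-binding cofactor of VCP, stood at 48.8 to 54.3 TPM at ZT8 and 42.5 to 46.9 TPM at ZT20 (-0.25, limma, adjusted p = 0.00112). VCP itself was at 151 ± 4.71 and 147 ± 1.75 TPM and was not called. UBXN8 (-0.26) was higher in the light phase, whereas UBXN2B (0.36), the chaperone BAG6 (0.17) and, among ligases that bind the proteasome, HUWE1 (0.18) were higher in the dark phase. The call of HUWE1 was kept in 8 of the same 21 alternative fits and that of RAD23B in 12. The plot of pathway genes shows calls on both sides of 0. Genes such as UBQLN2, UBXN2B and HUWE1 were paired only through the study's called genes, which holds for none of the 19 called members. The directions of these differently paired sets are therefore not compared.

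**Figure D5:**
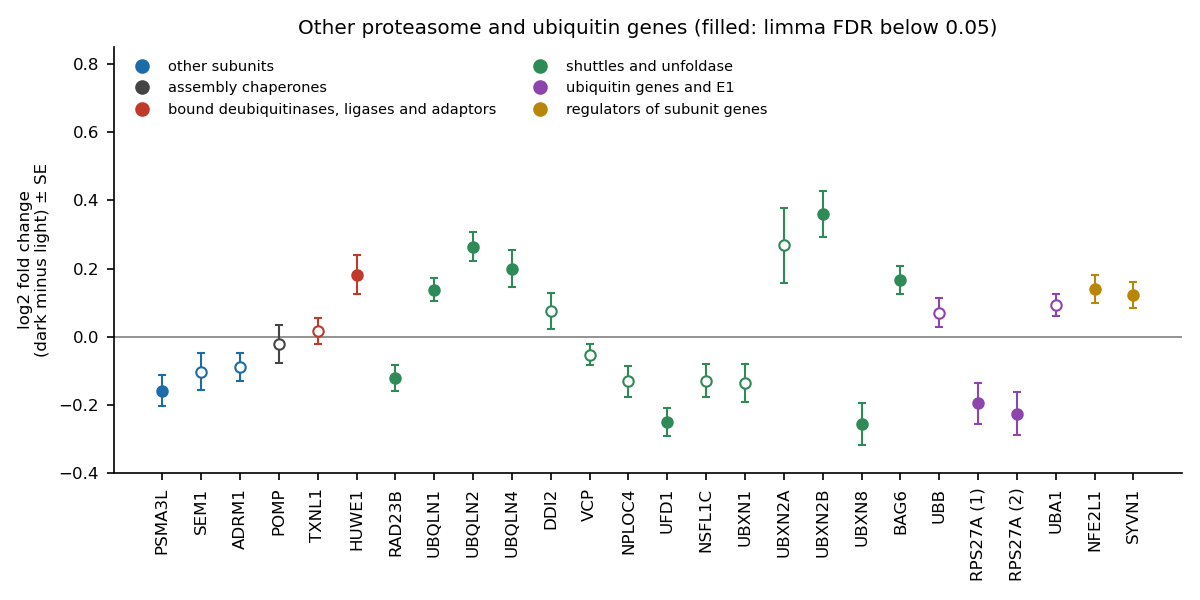
Log2 fold change (dark minus light) with its SE for 26 other proteasome and ubiquitin identifiers, coloured by list, from limma with n = 6 rats per phase; filled points have an FDR below 0.05. Calls fall on both sides of 0, with UBXN2B highest at 0.36 and UBXN8 lowest at -0.26.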

How the data were processed

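RNA from the choroid plexus of 12 rats, 6 per phase, was sequenced as paired-end reads by the authors, 1 library per rat. Reads were aligned by the authors to Rnor_6.0 with STAR 2.7.9a and quantified with RSEM 1.3.3, and differential expression was tested by them with DESeq2 on counts that were not used here. The authors deposited the resulting TPM per gene and library. The deposited FPKM values from the same RSEM output were used only for relative depth and for total FPKM divided by total TPM. Of 458 values in 79 weak genes, 71.2% were within 0.1 of whole reads. The exact read count of each library is unknown, so errors are the spread between rats.

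Each library was scaled by a trimmed mean of ratios (30% of ratios and 5% of levels trimmed at each end), and log2(scaled TPM + 0.5) of the 12513 genes averaging 1 TPM or more was fitted with limma 3.58.1 (R 4.3.3) on phase alone, with a mean-variance trend and Benjamini-Hochberg adjustment (FDR threshold 0.05). The added 0.5 understates changes of low genes. Pairs of catalytic subunits were compared with an exact permutation test (scipy 1.17.1), adjusted over 3 pairs. The fit was tested on simulated data with changes of 0.5 and 1 on the log2 scale, larger than those of the members. The simulated libraries had no length difference between the phases. This test therefore does not show how well changes as small as those of the members are recovered. Libraries correlated at 0.958 to 0.983, with 0 identical pairs. RSEM shares reads between similar transcripts, and RefSeq names at least 1 pseudogene for 16 of the 32 members, 9 of them among the 19 called. The kit and counting were not stated to use strand.

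The members and lists were chosen with earlier results of these data known, so that no count over them is independent support. Full values per library are given for the 3 catalytic subunits, for the smallest and largest p of each class, for the highest and lowest level, and for PSMA5 and NFE2L1. These last 2 genes and the promoters shown were chosen after their values were seen. Other listed genes are named where called, and some genes of the lists are not reported here. Identifiers were paired with symbols only through the study's supplementary lists (3700 genes), since the RefSeq table gave no Ensembl identifiers. Alternatives tried were TPM without scaling, median-of-ratios scaling, pseudocounts of 0.1 and 1, no filter, a minimum mean of 5 TPM, robust variances, sample weights, a replicate block, the length covariate and leaving out each library; their use for pathway genes that are no members was added after seeing the data.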

Additional observations from a re-analysis of the deposited data

Results flagged for a closer look

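In the light phase, PSMB6 in replicate 6 stood at 235 TPM, farther from the rest of its group (191 to 202 TPM) than Dixon's critical value for 6 samples allows. PSMC2 in light-phase replicate 4 stood at 86.9 TPM, below the other 5 libraries at 94.3 to 98.4 TPM by the same measure. Of 64 groups examined (32 members in 2 phases), these 2 passed that limit, and chance would pass about 3.2. PSMB6 was still called without light-phase replicate 6 (log2 fold change -0.23, limma, adjusted p = 0.00232), and PSMC2 without light-phase replicate 4 (-0.13, limma, adjusted p = 0.0458).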

How the results depend on the processing

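The count of members called higher in the light phase was 19 and stayed within 14 to 19 under the alternatives other than the length covariate, with 15 in TPM without scaling, 16 to 19 when 1 library was left out and 0 called higher in the dark phase in each. Of the 19 called members, 14 kept their call in each fit without 1 library and 12 in all 21 alternatives without the covariate. The light-phase replicates and the dark-phase replicates share numbers, but the correlation of same-numbered libraries after removing the phase means was -0.107 to 0.0469, so the numbers do not pair the rats; with the replicate block 14 members were called, with 1 in the ATPase ring and 1 among the PSMD genes. In TPM without scaling the ring had 1 call, and without 1 library it had 2 to 4. With the covariate the counts were 0 for all members, the core, the ring and the PSMD genes, and the calls over all genes 346 against 2217 (1599 with the block). The sign turned, among members that were not called, for PSMB5 (0.0491), PSMC4 (0.0400), PSMC6 (0.0230), PSME2 (0.0327) and PSMD4 (0.0059) with the covariate; for PSMC4 (0.0041), PSME2 (0.0044) and PSMD1 (0.0106) without light-phase replicate 6; for PSME2 (0.0048) without dark-phase replicate 3; and for PSMD1 in TPM without scaling (0.0109), with sample weights (0.0005) and without light-phase replicate 1 (0.0009) or dark-phase replicate 1 (0.0015). Over the fits without 1 library the estimates of these members ran from -0.0402 to 0.0041 (PSMC4), -0.0384 to 0.0048 (PSME2) and -0.0167 to 0.0106 (PSMD1). The log2 difference of PSMB6 to PSMB7 reached an adjusted p below 0.05 without light-phase replicate 3 (-0.1046, exact permutation test, adjusted p = 0.0346) and without dark-phase replicate 2 (-0.1022, exact permutation test, adjusted p = 0.0476), with a range of -0.1046 to -0.0623 over the fits without 1 library. Of pathway genes that were not called, the sign turned with the covariate for SEM1 (0.0532) and POMP (0.0218), without light-phase replicate 6 (0.0165) or dark-phase replicate 5 (0.0075) for POMP, whose range without 1 library was -0.0442 to 0.0165, and without dark-phase replicate 3 for TXNL1 (-0.0023). Of the 14 called pathway genes, 5 kept their call in all 21 alternatives without the covariate. The cause was not tested.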
